A study of Homo sapiens with 6 samples.

Results

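The circadian clock genes PER1, PER2, PER3, CRY1, CRY2, NR1D1, NR1D2, BHLHE40, BHLHE41 and CLOCK were taken by symbol from the expression table, and all 10 were among the 16250 genes listed. RNA was measured in HK-2, an immortalized human proximal tubule epithelial line. All the cells carried NK-1R, the receptor of substance P (SP), on a lentiviral vector with a CMV promoter and had been selected with puromycin as a stable population. They received 20 µM SP or PBS, the vehicle and control, and were harvested after 48 h, with 3 libraries in each group. Every library was taken at this single time, so a lower level cannot be told apart from a shifted phase of a rhythm, and neither period nor amplitude was measured.

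The mammalian clock is a transcription loop. CLOCK pairs with BMAL1 (gene ARNTL) and drives genes with an E-box, among them the PER and CRY genes, whose proteins return to the nucleus and repress the pair. The nuclear receptors NR1D1 and NR1D2 (REV-ERB alpha and beta) repress ARNTL, and BHLHE40 and BHLHE41 (DEC1 and DEC2) compete for the E-box. Renal tubules hold such a clock, and PER1 is known there for its effect on sodium transport genes. PER1 is also an early response gene of many cells to cAMP, calcium and glucocorticoids.

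Levels are given as FPKM, fragments scaled by transcript length and by the mapped fragments of the library, and can therefore be compared between genes. The number of reads behind them is unknown. FPKM totals ranged from 672807 to 760889 per library, and SP and control libraries lay apart on the first principal component, which held 64.8% of the variance. TACR1, the gene of NK-1R, was at 15.74, 25.82 and 32.98 FPKM in the control libraries and at 78.47, 123.25 and 140.69 in the SP libraries. Receptor transcript thus differed between the groups along with SP (log2 fold change, log2FC, of 2.17, with a limma adjusted p = 0.00207). Of the markers of the labelled cell type, PAX8, a renal lineage factor, was at 96.05 to 121.78 FPKM and the brush border enzyme gene GGT1 at 45.37 to 64.55 FPKM, while CUBN, SLC34A1, SLC5A2 and HNF4A were at 0.17 FPKM or lower in every library. The 4 leukocyte markers that were listed summed to 112.68 to 117.39 FPKM in control and to 108.37 to 114.75 FPKM in SP libraries, nearly all of it CD68, which many other cells also express, with CD14 at 1.45 to 4.09 FPKM and PTPRC at 0.01 FPKM or lower. The 5 fibroblast markers summed to 23.42 to 29.82 FPKM in control and to 15.71 to 18.06 FPKM in SP libraries, nearly all of it LUM and COL1A1, with PDGFRA at 0.08 FPKM or lower. The 3 endothelial markers that were listed summed to 0.05 to 0.07 FPKM in control and to 0.33 to 0.67 FPKM in SP libraries. Most of the rise was PECAM1, at 0.02 to 0.05 FPKM in control and 0.22 to 0.61 FPKM in SP libraries. CDH5 was at 0.03 FPKM or lower in control and at 0.05 to 0.1 FPKM in SP libraries, and VWF at 0.02 FPKM or lower. All 3 were below the filter on low values. The part of these markers in the results was not tested.

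PER3 was lower in SP-treated cells, where its mean fell by 50.8% from 5.12 ± 1.11 to 2.52 ± 0.498 FPKM (SD, n = 3), and the other 9 clock genes did not pass the test. The test was limma on log2(FPKM + 1), with p adjusted over the 12127 genes tested and a call at an adjusted p under 0.05. By this rule 1 of 10 clock genes was lower and none was higher, while 20.6% of all genes tested were called, 12% as lower and 8.57% as higher. At an unadjusted p under 0.05 there were 2 lower clock genes and 0 higher ones, against 36.6% of all genes tested in either direction. SP and control libraries did not overlap for 3 of 10 clock genes, PER2, PER3 and CRY2, and each was lower in SP. PER2 is also 1 of the 2 lower genes by unadjusted p. It passed the filter on low values through its control libraries alone, so its place in either count is only a description. Over all genes tested the groups did not overlap, with lower values in SP, for 26.1%, and in either direction for 42%, so the share among the clock genes was near that of genes at large. The median log2FC of the 10 genes was 0.05, against -0.05 over all genes tested.

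In control cells the order of levels ran from BHLHE40 (22.8 ± 3.74 FPKM, SD, n = 3) through CRY1 (13.6 ± 0.653), NR1D2 (9.61 ± 1.19), BHLHE41 (6.95 ± 2.30), PER1 (6.08 ± 0.685), PER3 (5.12 ± 1.11), CLOCK (4.33 ± 0.521), NR1D1 (3.26 ± 0.684) and CRY2 (2.30 ± 0.323) to PER2 (0.600 ± 0.104). BHLHE40 and CRY1, CRY1 and NR1D2, CLOCK and NR1D1, and CRY2 and PER2 did not overlap as neighbours in this order, and the other neighbours did. In SP-treated cells PER3 came after CLOCK and NR1D1, in the eighth place, and the order was otherwise the same.

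PER3, a PER protein gene with a weaker role in the core loop than its paralogs, was at 3.85, 5.86 and 5.66 FPKM in the control libraries and at 2.94, 2.65 and 1.97 FPKM in the SP libraries. Every SP library was below every control library. The log2FC was -0.79 (standard error, SE, 0.16, 95% interval -1.15 to -0.43, limma adjusted p = 0.0116). The size of this change exceeded that of 97.0% of the genes tested. On this scale, where the added 1 shrinks the change, it stayed under a log2FC of 1 in size, which 1.59% of the genes tested reached together with the adjusted p. Over 14 alternatives the log2FC of PER3 ran from -0.99 to -0.67 and the adjusted p from 0.00463 to 0.0463, so the call held in all of them, at its weakest without the second control library. In bulk RNA, fewer cells that express PER3 and less PER3 RNA per cell cannot be told apart. PER3 lies on the plus strand of chromosome 1 of GRCh38 from 7784320 to 7845177 (GENCODE 29), and its principal transcript has 21 exons. Its exons share 868 bases with UTS2 and 482 bases with the antisense gene Z98884.1, both on the other strand. Neither of these was analysed here.

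PER1, the early response member of the family, was at 5.40, 6.77 and 6.08 FPKM in control and at 7.45, 7.18 and 6.16 FPKM in SP libraries. The groups overlapped, and the log2FC of 0.16 had an interval of -0.07 to 0.40 (limma adjusted p = 0.282). PER2, a core repressor, was at 0.53, 0.72 and 0.55 FPKM in control and at 0.35, 0.45 and 0.26 FPKM in SP libraries. All SP values were below all control values, but PER2 passed the filter on low values through the control libraries alone. Its log2FC of -0.24 had an interval of -0.47 to -0.01 and a limma adjusted p = 0.125. At this level the added 1 shrinks the change, and with 0.1 added it was -0.64 with an adjusted p = 0.119. PER1 lies on the minus strand of chromosome 17 from 8140472 to 8156506, and PER2 on the minus strand of chromosome 2 from 238244038 to 238290102.

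The PER genes were also compared with each other within each library. The ratio of PER3 to PER1 was 0.713, 0.866 and 0.931 in the control libraries and 0.395, 0.369 and 0.320 in the SP libraries. A ratio within a library does not depend on how libraries are scaled to each other, and here the groups did not overlap. On the log2 scale the ratio differed by -1.21 between SP and control (p = 0.1 by a two-sided exact permutation test, the smallest that 3 against 3 libraries allow, 0.3 adjusted over 6 ratios). The ratio of PER2 to PER1 also did not overlap, at 0.0905 to 0.106 in control and 0.0422 to 0.0627 in SP libraries, a difference of -0.98 on the log2 scale. PER2 passed the filter through its control values alone, so this ratio is given as a description. It was still 1 of the 6 ratios tested, with an exact permutation p of 0.1 as well. The adjusted 0.3 of PER3 to PER1 depends on that tie, and no conclusion is drawn from the p of PER2 to PER1. PER3 and PER2 kept overlapping ratios to each other, with a difference of -0.23 on the log2 scale. The FPKM of the 3 PER genes together was 9.78, 13.35 and 12.29 in control and 10.74, 10.28 and 8.39 in SP libraries, and these sums overlapped. The pairs were chosen after the values were seen, as the paralogs within each family.

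**Figure D1:**
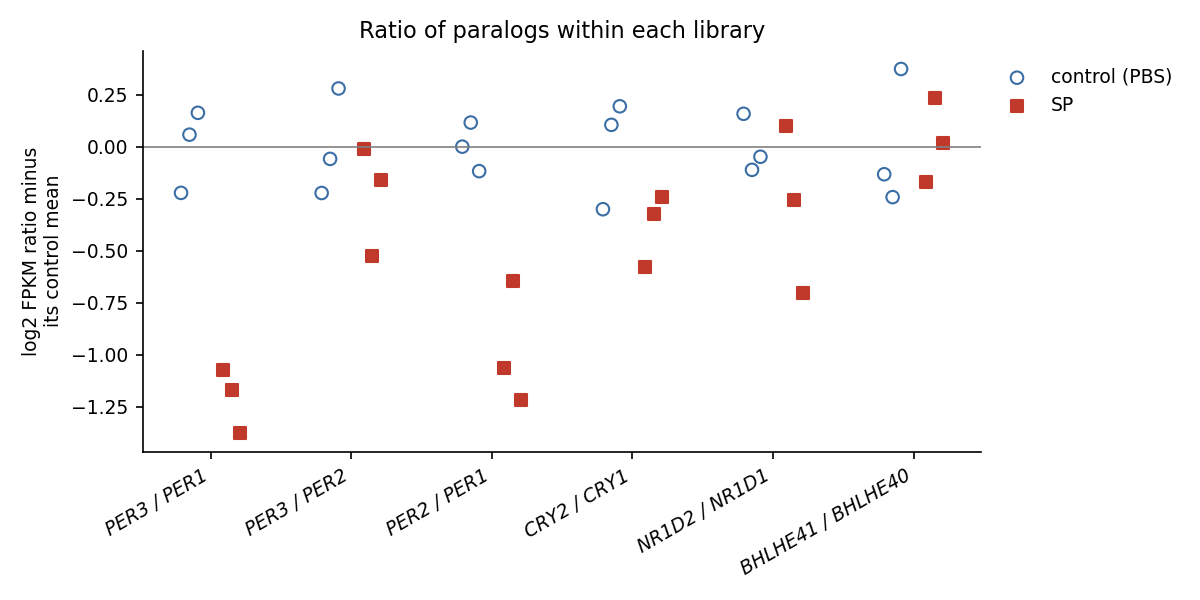
Log2 ratio of FPKM between paralogs within each library, minus its mean over the control libraries, for 6 pairs (open circles, control; red squares, SP). The SP libraries lie below all control libraries for PER3 to PER1 and PER2 to PER1, and the groups overlap for the other 4 pairs.

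The promoters of the PER genes are shown because PER3 was called while PER1 and PER2 were not. A window of NR1D2, which did not pass the test, is shown beside them because it carries both the D-box and the E-box CACGTG. All are RefSeq sequences of GRCh38.p14, read 5′ to 3′ on the gene's strand, for the 250 bases before an annotated start. By the GENCODE 29 bounds, the windows of PER1, PER2 and NR1D2 lie inside the gene, and that of PER3 lies before it. The windows are thus not at like positions in their genes. For PER1 the last 31 bases were left out because GENCODE 29 annotates them as exon. Capitals mark the motifs found. These are the E-box CACGTG that CLOCK and BMAL1 bind, the related CACGTT, and the D-box TTATGTAA, which DBP, TEF and HLF bind as activators and NFIL3 as a repressor. Both strands were searched, and CACGTG and CACGTT cannot match at the same 6 bases. The windows are chr17:8152436-8152654 (minus strand) for PER1, chr2:238288611-238288860 (minus strand) for PER2, chr1:7784041-7784290 (plus strand) for PER3 and chr3:23945871-23946120 (plus strand) for NR1D2. PER3 and NR1D2 each have another window, chr1:7784179-7784428 and chr3:23945036-23945285. Neither of these held any of the motifs searched, and they are not shown.
PER1: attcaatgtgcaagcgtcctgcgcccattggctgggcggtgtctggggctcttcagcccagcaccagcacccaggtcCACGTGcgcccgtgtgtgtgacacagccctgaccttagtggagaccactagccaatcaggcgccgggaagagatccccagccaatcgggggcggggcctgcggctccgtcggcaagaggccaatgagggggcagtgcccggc
PER2: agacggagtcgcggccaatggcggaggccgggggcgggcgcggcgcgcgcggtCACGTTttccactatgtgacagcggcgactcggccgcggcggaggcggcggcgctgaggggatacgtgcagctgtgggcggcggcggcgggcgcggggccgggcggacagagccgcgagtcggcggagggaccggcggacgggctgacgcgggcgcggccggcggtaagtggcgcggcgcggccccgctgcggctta
PER3: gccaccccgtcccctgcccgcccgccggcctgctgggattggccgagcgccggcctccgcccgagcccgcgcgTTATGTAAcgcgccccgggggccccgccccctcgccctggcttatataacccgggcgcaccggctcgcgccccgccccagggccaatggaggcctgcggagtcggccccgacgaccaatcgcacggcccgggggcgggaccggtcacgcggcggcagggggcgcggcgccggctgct
NR1D2: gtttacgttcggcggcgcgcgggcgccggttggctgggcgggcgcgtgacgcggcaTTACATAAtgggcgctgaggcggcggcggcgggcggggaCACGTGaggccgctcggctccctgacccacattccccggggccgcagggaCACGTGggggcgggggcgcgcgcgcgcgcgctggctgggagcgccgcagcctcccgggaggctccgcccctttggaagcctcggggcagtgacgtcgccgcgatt

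In the window of PER3 that is shown, the D-box began 177 bases before the start, and neither E-box form was found. The other window of PER3 held none of the motifs searched. PER1 held an E-box 173 bases and PER2 the form CACGTT 197 bases before the start. The D-box TTATGTAA was found in 0.834% of 35116 promoter windows of all genes and in 2 of 14 windows of the clock genes, 1 each of PER3 and NR1D2. CACGTG was found in 6.34% of all windows and in 4 of 14 of the clock genes (PER1, NR1D2, BHLHE40 and BHLHE41), and CACGTT in 4.55% and in 5 of 14. The full cAMP response element TGACGTCA and the other D-box form TTACGTAA were in 0 of 14 windows of the clock genes and in 1.65% and 0.105% of all windows. The REV-ERB and ROR core TAGGTCA was in 1 of 14, that of CRY2, and in 1.61% of all windows. A match describes these letters in this window and not a bound site.

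The cryptochrome genes encode the repressors that carry most of the loop's negative feedback. CRY1 was at 14.30, 13.01 and 13.48 FPKM in control and at 14.85, 14.46 and 12.60 FPKM in SP libraries. The groups overlapped throughout, and the log2FC of 0.03 (interval -0.16 to 0.22, limma adjusted p = 0.793) exceeded in size that of 11.2% of the genes tested. CRY2 was at 1.95, 2.35 and 2.59 FPKM in control and at 1.67, 1.94 and 1.79 FPKM in SP libraries. The SP libraries were all lower, the highest of them just below the lowest control library. The log2FC of CRY2 was -0.23 (interval -0.47 to 0.0014, limma adjusted p = 0.138), and its adjusted p was 0.0714 to 0.335 over 14 alternatives. The ratio of CRY2 to CRY1 overlapped between the groups, with a difference of -0.38 on the log2 scale (exact permutation p = 0.2, adjusted 0.4). CRY1 lies on chromosome 12 from 106991364 to 107093829, and CRY2 on chromosome 11 from 45847118 to 45883248.

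NR1D1 and NR1D2, the receptors that repress ARNTL, did not pass the test. NR1D1 was at 2.48, 3.74 and 3.57 FPKM in control and at 2.95, 3.47 and 4.90 FPKM in SP libraries. The highest value was in the third SP library, and without it the log2FC of 0.16 (interval -0.23 to 0.54, limma adjusted p = 0.540) was -0.0077. NR1D1 shares 263 exon bases with THRA on the other strand, the thyroid hormone receptor gene, which had a log2FC of -0.06 (limma adjusted p = 0.781). NR1D2 was at 8.24, 10.31 and 10.28 FPKM in control and at 9.42, 8.64 and 8.96 FPKM in SP libraries, with a log2FC of -0.08 (interval -0.30 to 0.14, limma adjusted p = 0.589). The ratio of NR1D2 to NR1D1 differed by -0.29 on the log2 scale with overlapping groups (exact permutation p = 0.4, adjusted 0.6). NR1D1 lies on chromosome 17 from 40092787 to 40100725, and NR1D2 on chromosome 3 from 23945260 to 23980618.

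BHLHE40 and BHLHE41 encode basic helix-loop-helix repressors that also respond to hypoxia and growth signals. BHLHE40, the most abundant of the 10 genes, was at 18.46, 25.21 and 24.62 FPKM in control and at 23.04, 21.93 and 26.60 FPKM in SP libraries. Its log2FC of 0.07 (interval -0.21 to 0.36, limma adjusted p = 0.702) was -0.065 without the first control library and -0.0046 without the third SP library. BHLHE41 was at 5.01, 6.34 and 9.49 FPKM in control and at 6.09, 7.68 and 8.01 FPKM in SP libraries. The SP values all lay inside the range of the control values. The log2FC of BHLHE41 was 0.09 (interval -0.35 to 0.52, limma adjusted p = 0.772), -0.095 without the first control library and 0.31 without the third. Its ratio to BHLHE40 differed by 0.03 on the log2 scale (exact permutation p = 0.9). BHLHE40 lies on chromosome 3 from 4979116 to 4985323. BHLHE41 lies on chromosome 12 from 26120026 to 26125127 and shares 162 exon bases with SSPN on the other strand, which was at 0.06 FPKM or lower in every library.

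CLOCK, the activating partner of BMAL1, was at 3.99, 4.07 and 4.93 FPKM in control and at 5.22, 4.49 and 4.51 FPKM in SP libraries. The groups overlapped, with a log2FC of 0.11 (interval -0.12 to 0.34, limma adjusted p = 0.468). CLOCK lies on chromosome 4 from 55427903 to 55547138 and shares 76 exon bases with TMEM165 on the other strand, which rose (log2FC 0.28, limma adjusted p = 0.0263). Over the 9 clock genes that were not called, log2FCs ran from -0.24 to 0.16, and their intervals reached from -0.47 to 0.54. Missing the threshold does not show equal levels, and the intervals give the sizes of change that 3 libraries in each group leave possible.

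**Figure D2:**
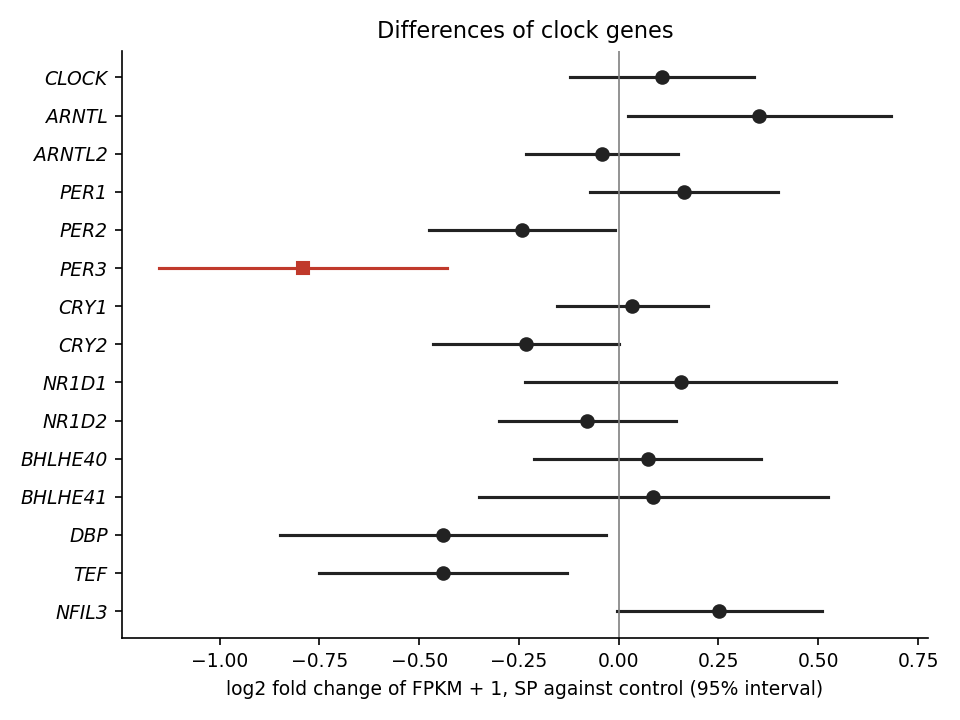
Log2 fold change of FPKM + 1 between SP and control for the 10 clock genes and 5 further genes of the loop, with the 95% interval from limma as a bar. PER3 at -0.79 is the called gene (red square), and the genes not called are black circles.

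**Figure D3:**
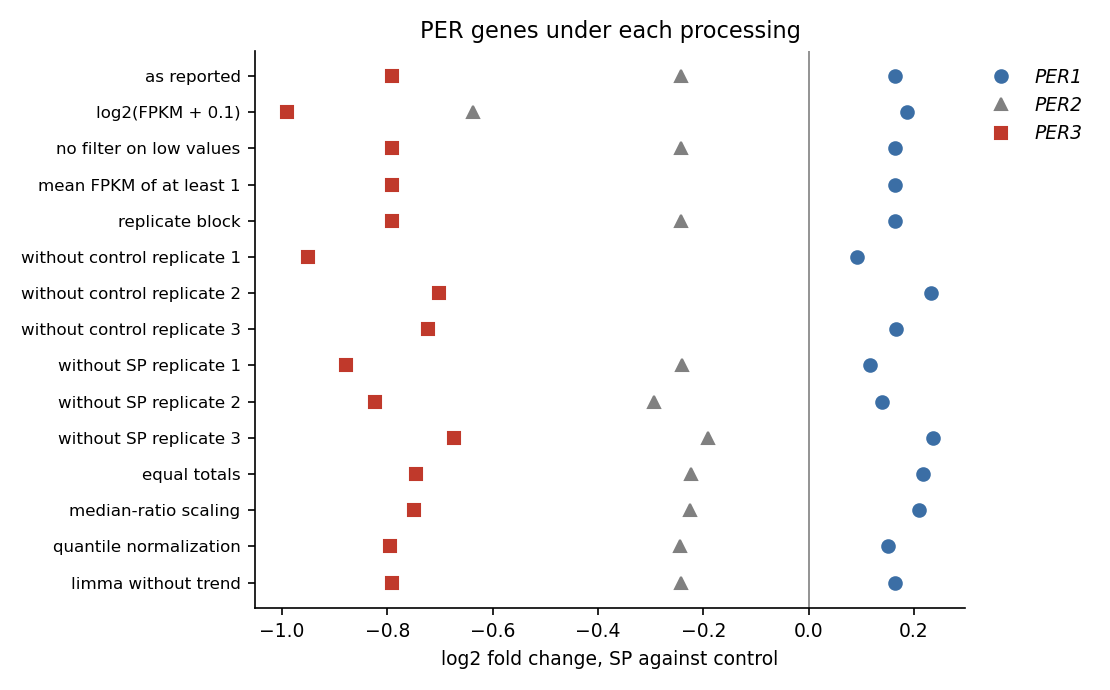
Log2 fold change of PER1 (blue circles), PER2 (grey triangles) and PER3 (red squares) as reported and under each alternative. PER3 stays between -0.99 and -0.67, and PER2 has no value where it fell below the filter on low values.

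Other genes of the loop and genes linked to it were followed in 9 lists with 100 genes, of which 91 were tested. The lists include general targets of the glucocorticoid receptor and of hypoxia-inducible factors, which are not parts of the loop. Of the 91 genes 14 were higher and 6 were lower, against 8.57% and 12% of all genes tested. The glucocorticoid list held 3 of the higher and 2 of the lower genes, and the hypoxia list 5 and 0. The core activators beside CLOCK and the D-box factors held 0 and 0. KLF9, among the higher genes, passed the filter on low values through the SP libraries alone. With FPKM scaled to equal totals there were 13 and 3, and with median-ratio scaling 16 and 3. Without the second control library there were 8 and 3, without the second SP library 7 and 2, and without the third SP library 9 and 3. The SGK1 gene is in both the glucocorticoid and the renal list.

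ARNTL, the gene of BMAL1, was at 5.42, 4.88 and 7.29 FPKM in control and at 6.75, 7.43 and 8.97 FPKM in SP libraries. The groups overlapped through the third control library. The log2FC of ARNTL was 0.35 (interval 0.02 to 0.68, limma adjusted p = 0.116), and the adjusted p was 0.0332 with the replicate number as a block and 0.0281 without the third control library (0.0281 to 0.314 over 14 alternatives). ARNTL2, its paralog, had a log2FC of -0.04 (limma adjusted p = 0.743), which was 0.0095 with equal totals and 0.0017 with median-ratio scaling. NPAS2, which can replace CLOCK, was below the filter at 0.06 to 0.23 FPKM in control and 0.17 to 0.39 FPKM in SP libraries. RORA, an activator of ARNTL, was also below the filter, at 0.16 to 0.20 FPKM in control and 0.24 to 0.41 FPKM in SP libraries, with a limma adjusted p = 0.0878 when no filter was set. RORB was not analysed here.

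The D-box factors carry the rhythm of the loop to its output genes. TEF, an activator, was at 2.46, 3.98 and 3.53 FPKM in control and at 2.31, 2.08 and 2.06 FPKM in SP libraries. Every SP library was lower than every control library, with a log2FC of -0.44 (interval -0.75 to -0.13, limma adjusted p = 0.0518). The adjusted p of TEF was 0.00927 without the first control library, 0.0453 with quantile normalization and up to 0.162 over the 14 alternatives. DBP, an activator and a direct target of CLOCK and BMAL1, was at 1.35, 1.81 and 2.43 FPKM in control and at 0.68, 1.51 and 1.15 FPKM in SP libraries. Its groups overlapped through the second SP library, and its log2FC of -0.44 had a limma adjusted p = 0.114 and one of 0.0401 with the replicate number as a block (0.0401 to 0.280 over 14 alternatives). DBP shares 661 exon bases with SPHK2 on the other strand, which had a log2FC of -0.24 (limma adjusted p = 0.0745). HLF, the remaining activator, was below the filter, at 0.48, 0.51 and 0.46 FPKM in control and 0.16, 0.24 and 0.37 FPKM in SP libraries, with a limma adjusted p = 0.0546 when no filter was set. NFIL3, the repressor at the D-box, was at 17.55, 12.75 and 15.63 FPKM in control and at 18.53, 17.02 and 19.36 FPKM in SP libraries, a log2FC of 0.25 (interval -0.0039 to 0.51, limma adjusted p = 0.141). None of these 4 genes was called.

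Kinases, phosphatases and ubiquitin ligases set the life span of the PER and CRY proteins. Of 19 such genes tested, 1 was higher, 1 was lower and 17 did not pass, with a median log2FC of 0.01. Over all genes tested, 8.57% were higher and 12% lower. FBXW11, a ubiquitin ligase subunit that acts on PER proteins, rose from 15.1 ± 1.73 to 20.5 ± 0.997 FPKM (log2FC 0.42, limma adjusted p = 0.0149). The adjusted p of FBXW11 was 0.0600 without the second control and 0.0582 without the second SP library. PPP1CC, a catalytic subunit of protein phosphatase 1, fell from 118 ± 1.22 to 99.1 ± 7.68 FPKM (log2FC -0.26, limma adjusted p = 0.0353), but passed in 5 of 14 alternatives and had an adjusted p of 0.0565 to 0.115 without any 1 control library or without the second or the third SP library. The casein kinase genes CSNK1D and CSNK1E, which phosphorylate PER proteins, had log2FCs of 0.04 and -0.13 (limma adjusted p = 0.739 and 0.256).

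Of 25 corepressors, coactivators and other modulators tested, 1 was higher, 1 was lower and 23 did not pass. Over all genes tested, 8.57% were higher and 12% lower. NAMPT, the rate-limiting enzyme of NAD salvage and itself an output of the clock, was at 57.87, 66.33 and 62.23 FPKM in control and at 102.15, 109.1 and 95.41 FPKM in SP libraries. All SP values were above all control values, with a log2FC of 0.71 (SE 0.08, limma adjusted p = 0.00108). The call of NAMPT held in all 14 alternatives. WDR5, a subunit of histone methyltransferase complexes, fell from 44.2 ± 0.110 to 37.5 ± 0.907 FPKM (log2FC -0.23, limma adjusted p = 0.0250), with an adjusted p of 0.0908, 0.112 and 0.0690 without the second control, the second SP or the third SP library, 0.158 with equal totals and 0.0637 with median-ratio scaling.

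Of 14 genes that carry signals to the PER promoters, 2 were higher, 1 was lower and 11 did not pass. Over all genes tested, 8.57% were higher and 12% lower. RPS6KA5, which encodes MSK1, a kinase of CREB and histone H3 downstream of MAPK, was at 3.63, 3.19 and 4.63 FPKM in control and at 5.83, 6.58 and 7.23 FPKM in SP libraries. The groups did not overlap, and the log2FC of 0.65 (limma adjusted p = 0.00995) was called in all 14 alternatives. CREM, of the CREB family, rose from 9.60 ± 0.841 to 12.3 ± 0.899 FPKM (log2FC 0.33, limma adjusted p = 0.0356). CREM lost the call without the first control, the second control or any 1 SP library (adjusted p 0.0608 to 0.127) and with no filter (0.0602). RPS6KA4, the paralog of RPS6KA5, fell from 18.4 ± 0.935 to 14.9 ± 1.14 FPKM (log2FC -0.29, limma adjusted p = 0.0355). The adjusted p of RPS6KA4 was 0.129, 0.0553, 0.137 and 0.102 without the second control, the third control, the second SP or the third SP library, 0.1475 with equal totals, 0.0657 with median-ratio scaling and 0.0528 with no filter, so that it passed in 7 of 14 alternatives. CREB1 itself had a log2FC of -0.0029 (limma adjusted p = 0.991).

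PER1 and the genes of the glucocorticoid list are bound by the glucocorticoid receptor in many cell types. Of 8 such genes tested, 3 were higher, 2 were lower and 3 did not pass, while of all genes tested 8.57% were higher and 12% lower. TSC22D3, which encodes the anti-inflammatory protein GILZ, was at 28.12, 26.96 and 22.90 FPKM in control and at 11.44, 11.43 and 12.32 FPKM in SP libraries, a log2FC of -1.08 (SE 0.09, limma adjusted p = 0.000364). CEBPD, a transcription factor of acute responses, fell from 155 ± 7.79 to 115 ± 5.53 FPKM (limma adjusted p = 0.00463). Both calls held in all 14 alternatives. KLF9, a repressor that follows the clock in many tissues, was at 0.24, 0.14 and 0.39 FPKM in control and at 0.71, 0.92 and 1.70 FPKM in SP libraries, and passed the filter through the SP libraries alone. Its log2FC was 0.72 (limma adjusted p = 0.0213), with an adjusted p of 0.0735 without the second control library, and 1.74 with 0.1 added in place of 1. KLF9 could not be fitted without any 1 SP library or with a mean of at least 1 FPKM, falling below the filter. It passed in 9 of the 10 alternatives that kept it, all of which held every SP library. Its call, counted among the 3 higher genes here, thus rests on the group in which it is high. PDK4, a kinase that restrains pyruvate oxidation, rose from 1.31 ± 0.437 to 2.39 ± 0.399 FPKM (limma adjusted p = 0.0315), with an adjusted p of 0.0991, 0.0665, 0.0832 and 0.0931 without the second control, the third control, the second SP or the third SP library, and 0.0634 with no filter. MT2A, a metallothionein gene, was the other higher gene of the list (log2FC 0.57, limma adjusted p = 0.0352), and passed in 8 of 14 alternatives. Quantile normalization, which gives equal values to a gene of equal rank in all libraries, gave MT2A a log2FC of 0.0. It is counted among the alternatives not passed, but cannot show whether a gene of that kind changed.

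BHLHE40 and BHLHE41 are also targets of hypoxia-inducible factors (HIF), and of 13 other HIF targets tested 5 were higher, none was lower and 8 did not pass, with a median log2FC of 0.50, while of all genes tested 8.57% were higher and 12% lower with a median of -0.05. VEGFA, the angiogenic growth factor gene, was at 31.64, 65.28 and 60.60 FPKM in control and at 97.88, 157.7 and 164.18 FPKM in SP libraries (log2FC 1.43, SE 0.28, limma adjusted p = 0.0111). ADM, which encodes the vasodilator adrenomedullin, rose from 16.0 ± 4.40 to 30.2 ± 2.12 FPKM, and the glucose transporter gene SLC2A1 from 87.0 ± 10.4 to 132 ± 14.8 FPKM (limma adjusted p = 0.0110 and 0.00767). ENO2, a glycolytic enzyme gene, had a log2FC of 0.50 (limma adjusted p = 0.0185, 0.0686 without the second SP library). NDRG1, a stress response gene, was the fifth (log2FC 0.60, limma adjusted p = 0.0435) and passed in 7 of 14 alternatives. The glycolytic genes LDHA and PGK1 of this list had log2FCs of -0.06 and 0.22 (limma adjusted p = 0.723 and 0.214). Whether BHLHE40 and BHLHE41 differed from these genes in their response was not tested.

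Of 8 renal transport genes tied to the clock, 2 were higher, 1 was lower and 5 did not pass. Over all genes tested, 8.57% were higher and 12% lower. SCNN1A, the alpha subunit of the epithelial sodium channel and a known PER1-dependent gene of the collecting duct, was at 2.33, 2.43 and 2.73 FPKM in control and at 1.45, 1.39 and 1.69 FPKM in SP libraries. The groups did not overlap, and the log2FC was -0.48 (SE 0.09, limma adjusted p = 0.0111, 0.0570 without the second SP library). FXYD5, of a family of small membrane proteins that regulate ion transport, rose from 570 ± 42.8 to 783 ± 23.5 FPKM (limma adjusted p = 0.00549). SLC9A3, the proximal tubule sodium-proton exchanger gene, had a log2FC of -0.24 (limma adjusted p = 0.0808).

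For PER3 and PER2, the clock genes with the largest log2FCs in size, the 3 genes of the most similar pattern were found by the root mean square difference over the 6 libraries in log2(FPKM + 1) minus the control mean. Those nearest to PER3 were TSPAN2, a tetraspanin gene, at 0.0834, GUCY1A1, a subunit of soluble guanylate cyclase, at 0.114, and MAN2A1, a Golgi mannosidase gene, at 0.139. TSPAN2 was at 12.75, 16.80 and 15.44 FPKM in control and at 9.86, 7.87 and 6.48 FPKM in SP libraries. Like PER3, it had its lowest control value in the first library and its lowest SP value in the third. TSPAN2 was picked for its likeness to PER3 over these same 6 libraries, so this shared order follows from the choice. Those nearest to PER2 were RBMX, SGSM2 and MTRNR2L9, at 0.0322 to 0.0353. The added 1 shrinks the change of PER2, at 0.26 to 0.72 FPKM, from a log2FC of -0.64 with 0.1 added to -0.24. RBMX also had a log2FC of -0.24, but at 207.61 to 219.07 FPKM in control and 167.69 to 190.09 FPKM in SP libraries. PER2 passed the filter through its control values alone. Nearness to PER2 thus describes this scale, and whether these genes share its change in FPKM was not tested.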

How the data were processed

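RNA from 6 libraries of HK-2 cells, 3 with SP and 3 with PBS, was sequenced by the authors on DNBSEQ as paired-end reads, mapped to GRCh38.p13 with HISAT and quantified with RSEM. The submitters' processing notes also name HISAT2, Bowtie2 and hg38. The values the authors deposited are FPKM with 2 decimals, 1 per gene and library. The authors called genes with DESeq2, which needs counts and was not run here. No source says whether the libraries came from separate cultures, so p-values measure the spread between libraries, which may be technical. Read depth is unknown.

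Genes with at least 0.5 FPKM in at least 3 libraries (12127 of 16250) entered the test. R 4.3.3 and limma 3.58.1 were used on log2(FPKM + 1), letting the variance follow the mean level, with Benjamini-Hochberg adjustment. Fold changes on this scale understate those of low genes. The script was tested on simulated data. The clock genes and the lists were chosen with earlier results of these data known, so no list was tested as a set. Genes named are the 10 clock genes, TACR1, all core activators, ROR receptors and D-box factors, up to 4 called genes of each other list with the smallest p, and the 3 nearest patterns of the PER3 and PER2 genes. CSNK1D, CSNK1E, CREB1, MT2A, NDRG1, LDHA, PGK1, SLC9A3, the genes overlapping a clock gene and the marker genes were named beside these after their values were seen. Some genes that the rule takes in are counted in their lists but not reported here by name. Within-library ratios were tested by two-sided exact permutation with scipy 1.17.1. No source used here gives the strand setting of the counting, so reads of genes that overlap on the other strand cannot be told apart.

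Libraries of the same number deviated together from their groups, with correlations of 0.165, 0.223 and 0.170, each over 0.1, so the replicate number was also fitted as a block. What the number stands for is not stated, and the pairing rests on these correlations. Other alternatives were log2(FPKM + 0.1), no filter, a mean of at least 1 FPKM, each library left out, equal totals, median-ratio and quantile scaling, limma without the trend, and stricter call rules. Positions are from GENCODE 29 (GRCh38) and promoters from RefSeq (GRCh38.p14), in which all 10 genes matched by symbol. Values of ± are SDs over 3 libraries.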

Additional observations from a re-analysis of the deposited data

How the results depend on the processing

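PER3 was the called clock gene under every one of the 14 alternatives to the fit, and 0 clock genes were lower when a log2 fold change of at least 1 was also asked or when the adjusted p had to be under 0.01. With the replicate number as a block its adjusted p was 0.0161, and no clock gene gained or lost a call. The block raised the calls in the clock-linked lists to 19 higher and 9 lower, with ARNTL and DBP among them. With 1 library left out, these lists held 7 to 18 higher and 2 to 8 lower genes, and with equal totals or median-ratio scaling 3 were lower. Scaling moved the median of all genes by at most 0.0542 on the log2 scale. The sign changed within the leave-one-out ranges of CRY1 (-0.0086 to 0.10), NR1D1 (-0.0077 to 0.28), BHLHE40 (-0.065 to 0.15) and BHLHE41 (-0.095 to 0.31), none of which was called, and for ARNTL2 with equal totals (0.0095) and median-ratio scaling (0.0017). The cause of these changes was not tested. PER2 could not be fitted without any 1 control library or with a mean of at least 1 FPKM, since it then fell below the filter. With an arm of 2 libraries, limma takes the spread from all libraries. Unknown depth leaves the precision of low genes such as PER2, CRY2 and HLF unstated beyond the spread between libraries.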
